A study of Mus musculus with 12 samples.

Results

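The 7 genes described here encode the amyloid precursor protein family (App, Aplp1 and Aplp2), the beta-secretases (Bace1 and Bace2) and the alpha-secretases (Adam10 and Adam17). They were taken by symbol from the 21878 genes in each of 12 expression tables of mouse hippocampus, and every one was found in all 12. The study compared mice carrying a conditional double knockout of presenilin genes (DKO), Psen2 among them, with wild-type mice (WT), each sampled by day and at night. The groups were DKO mice at night (Night DKO), WT mice at night (Night WT), DKO mice by day (Day DKO) and WT mice by day (Day WT), with 3 libraries each. According to the series design, animals were killed under pentobarbital anaesthesia in the morning (9 a.m.) or the evening (9 p.m.), and the title names disturbed circadian rhythm and memory. The driver and the cells of the conditional deletion, and the strain, age and sex of the mice, are not stated there. No label ties a library to a mouse of its own, and p-values therefore reflect the spread among these samples, which may be technical.

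The amyloid precursor protein and its relatives are membrane proteins that shed their large outer domains and then lose the remaining stub inside the membrane. Alpha-secretases cut within the amyloid-beta stretch of the precursor and so prevent the peptide from forming, whereas beta-secretase makes the first cut of the path that yields it. Gamma-secretase, whose catalytic subunit is a presenilin, makes the second cut in both paths, and it is the enzyme whose catalytic subunits the knockout targets.

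Of the targeted genes, Psen2 was read first. Psen2 stood at 0.477 ± 0.122 FPKM (fragment counts per transcript length and library size; SD, n = 3 libraries here and throughout) in Night DKO and 3.38 ± 0.381 in Night WT, and at 0.391 ± 0.123 in Day DKO and 2.00 ± 0.756 in Day WT. It fell in DKO at night and by day, by 1.57 and 1.08 in log2(FPKM + 1) (limma, adjusted p = 0.000785 and 0.00982). A transcript that lacks only some exons still gives fragments, so these values do not measure how complete the deletion is.

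Libraries of 1 group correlated at 0.990 to 0.995 over the tested genes. All 8 hippocampal subfield markers, among them Prox1 of the dentate gyrus and Wfs1 and Fibcd1 of CA1, were above 0 in at least 1 library of every group. That is a low bar and does not test the dissection. Night WT replicate 1 stood apart: the Y-linked genes Ddx3y, Eif2s3y, Uty and Kdm5d were at 0 to 0.0225 FPKM there and at 1.76 to 8.56 FPKM in the other 11 libraries, so comparisons with Night WT set 1 library of another sex among the rest. The Night WT libraries therefore came from more than 1 animal, and for the other groups this stays unknown. Markers of the choroid plexus, a tissue next to the hippocampus, also varied between libraries. The 8 of them summed to 1996 to 3146 FPKM in Night DKO, 1423 to 3286 in Night WT, 77.2 to 1869 in Day DKO and 1174 to 2895 in Day WT, and none was at 0 in any group. In bulk tissue, fewer cells of a type and less RNA per cell cannot be told apart.

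Upstream sequence was at hand for 5 of the 7 genes, from RefSeq on GRCm38.p6. The 250 bases before the transcription start are shown for the whole precursor family, whose members share their processing, and for Adam10, whose window held a clock-type E-box. Each is given 5′ to 3′ on the strand of the gene, and capitals mark the GC box (GGGCGG, or CCGCCC on the opposite strand) and the E-box CACGTG.
Aplp2: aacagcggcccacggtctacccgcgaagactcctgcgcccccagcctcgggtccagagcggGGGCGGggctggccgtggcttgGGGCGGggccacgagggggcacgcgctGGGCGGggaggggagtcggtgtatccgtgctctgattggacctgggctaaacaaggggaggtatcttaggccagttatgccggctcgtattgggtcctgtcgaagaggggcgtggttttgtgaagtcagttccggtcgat
App: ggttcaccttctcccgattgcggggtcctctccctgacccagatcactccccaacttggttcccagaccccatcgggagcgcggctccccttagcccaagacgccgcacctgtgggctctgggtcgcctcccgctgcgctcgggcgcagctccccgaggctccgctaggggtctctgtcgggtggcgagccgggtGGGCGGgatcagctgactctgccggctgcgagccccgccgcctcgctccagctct
Aplp1: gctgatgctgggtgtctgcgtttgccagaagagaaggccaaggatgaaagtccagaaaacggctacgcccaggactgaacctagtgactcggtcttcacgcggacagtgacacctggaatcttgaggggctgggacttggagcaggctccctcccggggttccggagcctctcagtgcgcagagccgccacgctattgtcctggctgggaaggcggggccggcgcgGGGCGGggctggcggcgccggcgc
Adam10: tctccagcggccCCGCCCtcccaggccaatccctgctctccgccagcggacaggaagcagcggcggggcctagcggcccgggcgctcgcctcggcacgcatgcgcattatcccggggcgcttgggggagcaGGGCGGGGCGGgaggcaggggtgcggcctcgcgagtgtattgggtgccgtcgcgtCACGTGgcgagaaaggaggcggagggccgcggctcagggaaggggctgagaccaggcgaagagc
The windows are chr9:31211849-31212098 (minus strand) for Aplp2, chr16:85173708-85173957 (minus strand) for App, chr7:30445583-30445832 (minus strand) for Aplp1 and chr9:70678732-70678981 (plus strand) for Adam10. The App window lies inside the annotated span of its gene and the end of the Adam10 window runs into that of its own, because for them the RefSeq table does not start from the outermost annotated base.

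All of these windows were rich in G and C. GC content was 66.4% for Aplp2, 70.8% for App, 66.0% for Aplp1, 74.0% for Adam10 and 70.4% for Adam17, against a median of 52.4% over all 32851 windows of the same length. Aplp2 held 3 GC boxes, at -189 to -184, -167 to -162 and -140 to -135 from the start, where App, Aplp1 and Adam17 held 1 each. Adam10 also held 3, of which a pair overlapped by 1 base. A GC box, the letters that Sp1-type factors recognise, occurred in 32.7% of all windows. The E-box CACGTG, the letters that the clock factors CLOCK and BMAL1 recognise, was found at -64 to -59 of Adam10 and in none of the other 4 windows, and it occurred in 6.02% of all windows. None of the 5 held the D-box TTANGTAA (2.06% of all windows), the cyclic AMP element TGACGTCA (1.55%) or TATAAA (12.4%), each searched on both strands. CCAAT occurred in 33.8% of all windows, and 2 copies were found in Aplp2 and 2 in Adam10. A match describes letters in a window and says nothing of binding.

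The 7 genes spanned a wide range of levels, and their order was the same in every library. The unit was read from the range of the values. If they are FPKM, they are values per transcript length, and levels can then be set side by side between genes. Mean FPKM over the 12 libraries was 149.9 for Aplp1, 93.9 for App, 51.3 for Aplp2, 13.9 for Bace1, 11.4 for Adam10, 1.94 for Adam17 and 0.624 for Bace2. The libraries of neighbours in this order did not overlap. The lowest Aplp1 library (139.3 FPKM) was above the highest App library (103). The lowest Bace1 library (12.5) was above the highest Adam10 library (12.2), the closest pair. Bace1 exons share 15.4% of their bases with Rnf214 on the opposite strand, and whether strand was used in quantifying is not stated. The place of Bace1 above Adam10, and their ratio below, carry that limit. Aplp1 stood above 99.0% of the 12689 tested genes, App above 98.1% and Aplp2 above 95.9%, while Bace2 stood above 5.09%.

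**Figure D1:**
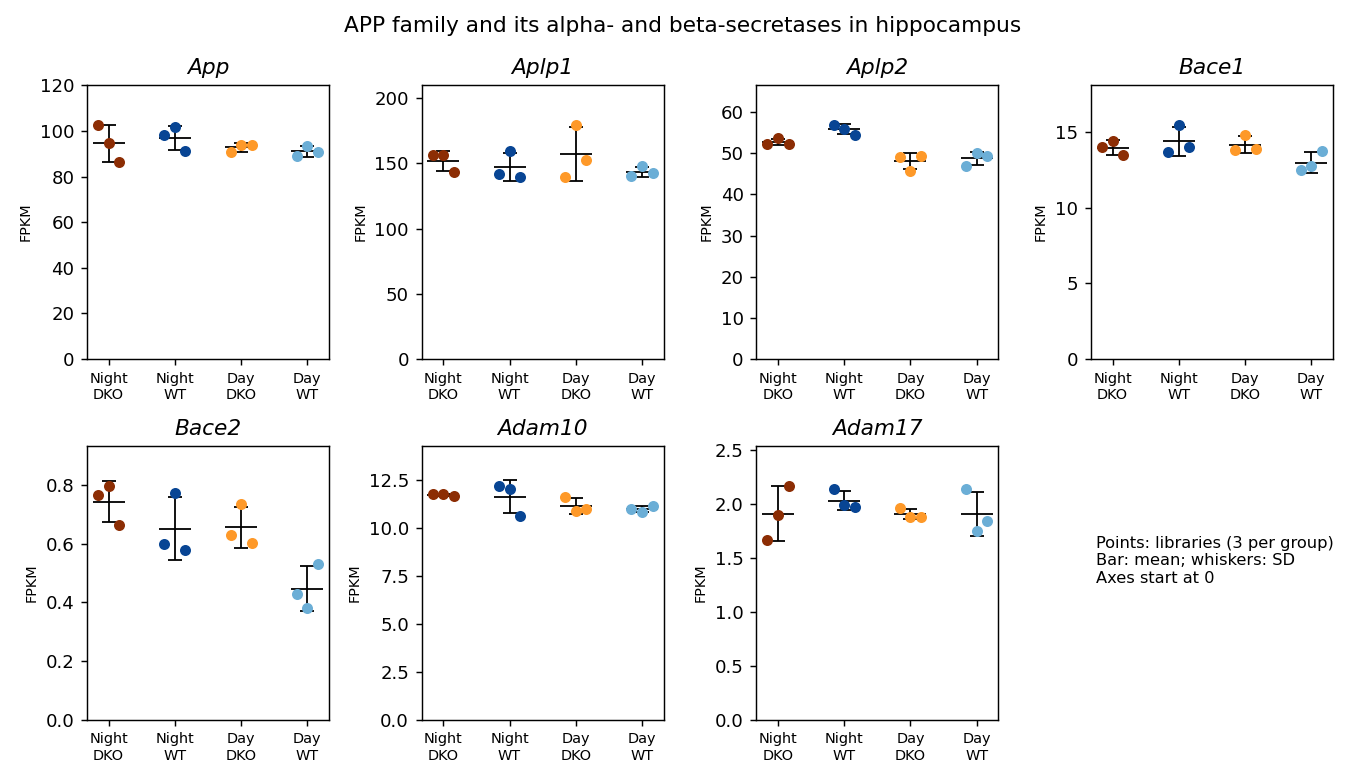
FPKM of the 7 genes in each library (points), with the group mean (bar) and SD (whiskers), for Night DKO, Night WT, Day DKO and Day WT. Aplp2 averaged 52.7 and 55.8 FPKM in Night DKO and Night WT, against 48.1 and 48.7 FPKM in Day DKO and Day WT, and Bace2 was lowest in Day WT at 0.446 FPKM.

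Levels were steady across libraries for most of the genes. The coefficient of variation over all 12 libraries, groups included, was 4.66% for Adam10, 5.23% for App and 5.88% for Bace1, against a median of 10.1% over tested genes, and only 2.56% of tested genes varied less than Adam10. It was 6.83% for Aplp2, 7.91% for Aplp1 and 8.01% for Adam17. Bace2 was the exception at 21.4%, more than in 88.6% of tested genes, and it reached 0.5 FPKM in 10 of the 12 libraries. These shares are over tested genes of every level, where App stood above 98.1% and Bace2 above 5.09%. Genes of like level were not compared, so the part of level in these values was not tested.

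Shares within the family and ratios between the enzymes held narrow ranges. Aplp1 made up 50.7% of the summed FPKM of the 3 family members on average (47.8% to 56.3% over libraries), App 31.8% (29.4% to 33.1%) and Aplp2 17.4% (14.3% to 19.1%). The ratio of Adam10 to Bace1, the main alpha- and beta-secretases of brain, averaged 0.822 and stayed between 0.734 and 0.893. App was 6.77 times the level of Bace1 (6.33 to 7.34), and Adam10 5.90 times that of Adam17 (5.15 to 7.08). The ratio of Bace1 to Bace2 moved more, between 18.1 and 33.5 over libraries. It was 18.9 ± 1.24 in Night DKO and 22.4 ± 2.13 in Night WT, and 21.7 ± 1.42 in Day DKO and 29.6 ± 3.82 in Day WT.

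None of the 7 genes passed the test for a difference between DKO and WT, by day or at night. A call required a limma p, adjusted by Benjamini-Hochberg across the tested genes, under 0.05 (2-sided). By day 1.18% of all tested genes were called, and at night 0.0236%. At an unadjusted p under 0.05, 1 member passed by day and 0 at night, against 17% and 9.18% of all genes. The 95% intervals of the members reached 0.11 to 0.19 either side of the estimate in log2(FPKM + 1). These intervals are not adjusted for the number of genes tested, so differences within that size, and larger ones, could go uncalled. Bace2 by day had a difference of 0.20 with an interval of 0.04 to 0.35 and was not called.

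App, the source of amyloid-beta, was at 103, 94.9 and 86.5 FPKM in Night DKO, against 98.4, 101.6 and 91.2 in Night WT. It was at 90.7, 93.8 and 94.0 FPKM in Day DKO, against 89.0, 93.6 and 90.7 in Day WT. The libraries of both genotypes ran through each other at both times. The DKO-WT difference in log2(FPKM + 1) was -0.04 at night and 0.03 by day (95% interval -0.12 to 0.17 by day; adjusted p = 0.927 and 0.869). Averaged over times it was -0.0047 (adjusted p = 0.975).

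Aplp1, the family member found mainly in neurons, was the most abundant of the 7. It was at 156, 157 and 143 FPKM in Night DKO, against 142, 159 and 139.7 in Night WT. By day it was at 139.3, 179.6 and 152 FPKM in Day DKO, against 140.4, 148 and 142 in Day WT. The mean of Day DKO, 157 ± 20.6 FPKM, was set by its second library, and the lowest Day DKO library lay below all 3 Day WT libraries. The differences were 0.05 at night and 0.12 by day in log2(FPKM + 1) (adjusted p = 0.921 and 0.497). With the choroid plexus covariate the day difference of Aplp1 was 0.0045.

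Aplp2, the widely expressed relative, showed the only call among the 7 genes, and it was by time of day. It was at 52.3, 53.6 and 52.2 FPKM in Night DKO, against 49.2, 45.7 and 49.4 in Day DKO. It was at 56.9, 56.0 and 54.5 FPKM in Night WT, against 46.9, 50.1 and 49.2 in Day WT. In each genotype the 3 night libraries lay above the 3 day libraries. Averaged over genotypes, Aplp2 rose at night by 0.16 in log2(FPKM + 1) (95% interval 0.08 to 0.24, limma adjusted p = 0.0282, higher in both genotypes). Over all tested genes 6.07% were called in that comparison, 5.19% higher and 0.875% lower at night, and the median of all genes was itself 0.05.

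Within a genotype Aplp2 did not pass. The night-day difference was 0.13 in DKO (95% interval 0.02 to 0.24, adjusted p = 0.267) and 0.19 in WT (0.08 to 0.30, adjusted p = 0.0748), and the mean FPKM ratio of night to day was 1.10 in DKO and 1.14 in WT. With quantile normalization the WT difference of Aplp2 was 0.061 (adjusted p = 0.662). The call was lost with median-of-ratios scaling (difference 0.10, adjusted p = 0.116), with quantile normalization (0.09, adjusted p = 0.202) and with choroid plexus markers as a covariate (0.14, adjusted p = 0.0994). Without 1 library at a time the difference stayed between 0.14 and 0.17, and the call was lost without Day WT replicate 1, any 1 of the Night DKO libraries, or Night WT replicate 1 or 2 (adjusted p 0.0504 to 0.0702).

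**Figure D2:**
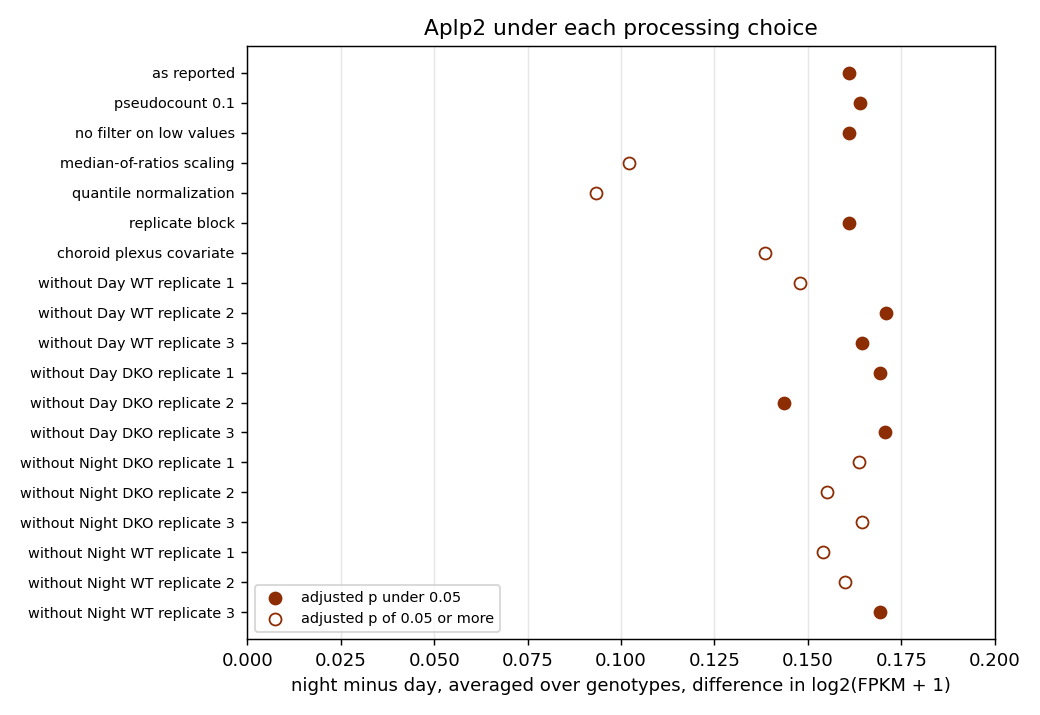
Night-day difference of Aplp2 in log2(FPKM + 1), averaged over genotypes, as reported and under 18 other processing choices, with filled points where the limma adjusted p was under 0.05. Every choice gave a positive difference, from 0.09 with quantile normalization to 0.17, and 9 of the 18 kept the call.

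Markers of several cell types and tissues moved with time beside Aplp2, in a comparison where 5.19% of all tested genes were higher and 0.875% lower. The 5 red blood cell genes, globins and Alas2, were all higher at night in the averaged comparison (limma adjusted p 0.0106 to 0.0362), and they summed to 116 to 159 FPKM in Night DKO, 171 to 285 in Night WT, 90.5 to 109.8 in Day DKO and 111 to 153 in Day WT. Of 8 oligodendrocyte markers 2 were higher at night, Mog by 0.33 and Cldn11 by 0.33 in log2(FPKM + 1), and their sum was 358 to 459 FPKM in Night DKO, 447 to 526 in Night WT, 321 to 401 in Day DKO and 395 to 435 in Day WT. The 8 choroid plexus markers had a median difference of 0.89 (0.35 to 1.31), and all 8 were positive. None was called, but 5 of the 8 had an unadjusted limma p under 0.05, against 26.2% of all genes. Of other lists, 1 of 6 astrocyte markers was higher, while 1 of 8 endothelial and mural and 1 of 6 excitatory neuron markers were lower. The 8 hippocampal subfield markers had a median difference of -0.14, with none called. None of these markers was at 0 in any group, and the part of these cell types and tissues in the result for Aplp2 was not tested.

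Between genotypes Aplp2 was lower in each Night DKO library than in any Night WT library, but the difference of -0.08 (95% interval -0.19 to 0.03) did not pass the test (adjusted p = 0.686). Over all tested genes 9.48% had DKO libraries that lay wholly below WT at night, so 1 of 7 is near that share. By day the libraries overlapped (difference -0.02, adjusted p = 0.877).

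Bace1, the main beta-secretase of neurons, was at 14.0, 14.4 and 13.5 FPKM in Night DKO, against 13.7, 15.5 and 14.0 in Night WT. By day it was at 13.8, 14.8 and 13.9 FPKM in Day DKO, against 12.5, 12.7 and 13.8 in Day WT. All 3 Day DKO libraries lay above the 3 Day WT libraries, the nearest pair at 13.81 and 13.76 FPKM, and the night libraries overlapped. The difference by day was 0.12 (95% interval -0.01 to 0.25, adjusted p = 0.344) and at night -0.04 (adjusted p = 0.904). With the choroid plexus markers as a covariate the day difference of Bace1 was 0.036 (adjusted p = 0.912). By day the 8 choroid plexus markers had a median DKO-WT difference of -1.17 in log2(FPKM + 1), with none called and 0 positive. At an unadjusted limma p under 0.05, 7 of the 8 passed, against 17% of all genes. The night-day difference of Bace1 was -0.02 in DKO (adjusted p = 0.932) and 0.14 in WT (95% interval 0.01 to 0.27, adjusted p = 0.205), the WT value 0.042 with quantile normalization. The night genotype difference minus the day one was -0.16 for Bace1 (adjusted p = 0.604), the farthest from 0 of the 7.

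Bace2, the paralogue of Bace1 that is known mainly outside neurons, was near the lower limit of the tested genes. It was at 0.767, 0.798 and 0.664 FPKM in Night DKO, against 0.599, 0.774 and 0.580 in Night WT. By day it was at 0.629, 0.733 and 0.603 FPKM in Day DKO, against 0.427, 0.380 and 0.531 in Day WT. All 3 Day WT libraries lay below the other 9. The mean FPKM ratio of Day DKO to Day WT was 1.47, and that of Night WT to Day WT was 1.46. On the log2(FPKM + 1) scale, which shrinks such low values, the DKO-WT difference by day was 0.20 (95% interval 0.04 to 0.35, adjusted p = 0.199) and the night-day difference in WT was 0.19 (0.03 to 0.35, adjusted p = 0.150), so neither passed. These comparisons share the Day WT libraries.

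With a pseudocount of 0.1 the day difference of Bace2 between genotypes was 0.47 (adjusted p = 0.177), and with the choroid plexus covariate it was 0.10 (adjusted p = 0.744), so it passed in neither. Averaged over times, the genotype difference was 0.14 (95% interval 0.03 to 0.25, adjusted p = 0.199), where 1.88% of all genes were called, and 0.090 with the choroid plexus covariate. Averaged over genotypes, the night-day difference was 0.13 (adjusted p = 0.123). Over all genes 14.3% had Day DKO libraries wholly above Day WT, the pattern of both beta-secretases and of no other member.

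**Figure D3:**
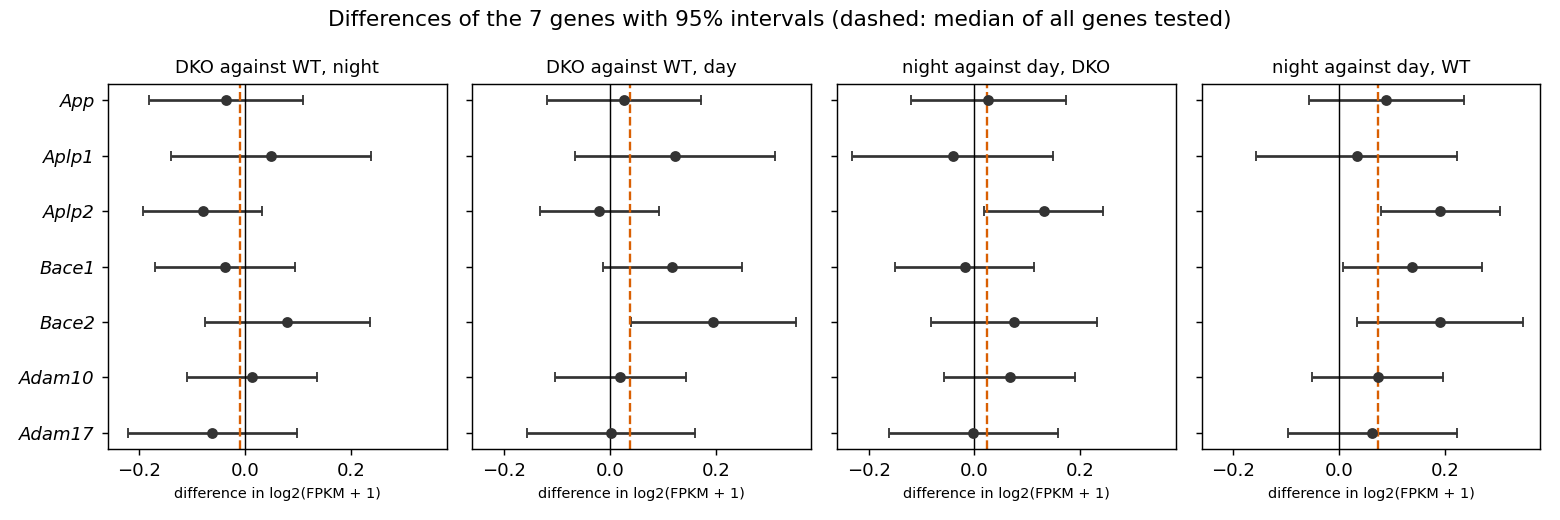
Differences of the 7 genes in log2(FPKM + 1) with 95% intervals, for DKO against WT at night and by day and for night against day in DKO and in WT. The dashed line is the median of all tested genes, between -0.0090 and 0.07. No difference passed the adjusted threshold in these 4 comparisons. Intervals wholly above 0 are those of Aplp2, Bace1 and Bace2 by time in WT, of Aplp2 by time in DKO and of Bace2 between genotypes by day.

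Adam10, the main alpha-secretase of neurons, was at 11.8, 11.8 and 11.7 FPKM in Night DKO, against 12.2, 12.1 and 10.6 in Night WT. It was at 11.7, 10.9 and 11.0 FPKM in Day DKO, against 11.0, 10.8 and 11.2 in Day WT. The genotypes overlapped at both times, with differences of 0.01 at night and 0.02 by day (adjusted p = 0.973 and 0.889). In DKO the night libraries lay just above the day libraries (difference 0.07, adjusted p = 0.642), and in WT 1 night library was the lowest of all 12 (difference 0.07, adjusted p = 0.469). The time difference of Adam10 in WT turned negative under both rescalings, to -0.0098 and -0.021.

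Adam17, which sheds many signalling proteins besides the precursor, was at 1.66, 1.90 and 2.17 FPKM in Night DKO, against 2.14, 1.99 and 1.98 in Night WT. By day it was at 1.96, 1.88 and 1.88 FPKM in Day DKO, against 2.14, 1.75 and 1.84 in Day WT. Libraries overlapped between genotypes at each time and between times in each genotype, and the group means lay between 1.91 and 2.03 FPKM. Its differences were -0.06 and 0.0026 between genotypes at night and by day, and -0.0020 and 0.06 between night and day in DKO and WT (adjusted p 0.650 to 0.996).

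Between night and day within a genotype, 0.299% of all tested genes were called in DKO and 1.67% in WT, and no member was. At an unadjusted p under 0.05, 1 member passed in DKO (Aplp2) and 3 in WT (Aplp2, Bace1 and Bace2), against 15.1% and 22.3% of all genes. Averaged over genotypes it was 2 members against 26.2% of genes, and averaged over times, between genotypes, 1 member against 16.2%. Members whose night libraries lay wholly above the day libraries were Aplp2 and Adam10 in DKO, against 12.9% of all genes, and Aplp2 and Bace2 in WT, against 24.3%. The WT differences of all 7 genes were positive, with a median of 0.09, where the median of all genes was 0.07 and 72.1% of genes were positive. The night genotype difference minus the day one was negative for all 7 genes, from -0.16 to -0.0067, against a median of -0.05 over all genes, of which 36.5% were positive. No gene of the whole table was called in that comparison (limma), and 8.66% had an unadjusted p under 0.05, among them 0 of the 7.

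Genes whose levels over the 12 libraries were most like those of a member are named as a description, among 10844 genes. The measure is Pearson's r of log2(FPKM + 1), and it takes in group differences and any scaling that libraries share. Aplp2 was followed most closely by Polr2m (r = 0.974), a subunit of RNA polymerase II complexes, and by Scarb2 (0.966), a lysosomal membrane protein. Bace1 was followed by Negr1 (0.957) and Ppp2r1a (0.928), and Bace2 by Rab12 (0.951) and Glb1 (0.931). Adam10 was followed by Smarce1 (0.953) and Ctps2 (0.850), Aplp1 by Scamp5 (0.932) and Pdxp (0.916), App by Zdhhc6 (0.911) and Emc1 (0.899), and Adam17 by Wdr3 (0.788) and Cc2d2a (0.752). Among the 7 genes themselves the highest r was that of Bace1 with Bace2 (0.851) and the lowest that of App with Adam17 (-0.450).

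Lists of genes around the 7 were counted in the same fit. Between genotypes, averaged over times, no gene was called among 16 APP adaptors and trafficking genes, 13 regulators of BACE1, 5 other APP-cleaving proteases, 7 amyloid-beta degrading proteases, 13 BACE1 substrates and 17 substrates of ADAM10 and ADAM17 that passed the filter. Their medians in log2(FPKM + 1) lay between -0.02 and 0.07, against 0.01 over all genes. The gamma-secretase subunits had 1 of 7 lower, Psen2 itself, and the regulators of ADAM10 and ADAM17 had 1 of 12 lower and 0 higher. Over all tested genes 1.88% were called in that comparison, and 53.4% of those were higher in DKO.

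That regulator was Timp3, a secreted inhibitor of both alpha-secretases. Timp3 averaged 18.5 ± 1.04 FPKM in Night DKO and 22.1 ± 1.81 in Night WT, and 12.6 ± 0.704 in Day DKO and 15.9 ± 1.87 in Day WT. It fell by 0.28 in DKO in log2(FPKM + 1), averaged over times (limma adjusted p = 0.0322). That call was kept in 8 of 18 other settings and lost without the filter, with the choroid plexus covariate and without any 1 of 8 libraries, Night WT replicate 1 among them (highest adjusted p 0.115). Reck, a membrane-anchored inhibitor of metalloproteinases, averaged 1.11 ± 0.0631 FPKM in Night DKO and 1.47 ± 0.177 in Night WT, and 0.984 ± 0.108 in Day DKO and 1.33 ± 0.227 in Day WT (difference -0.23, adjusted p = 0.0661). Of 8 endothelial and mural markers 3 were lower in DKO and 0 higher, averaged over times, beside 1.88% of all tested genes called in either direction. Their sum was 27.1 to 35.5 FPKM in Night DKO, 32.2 to 42.5 in Night WT, 32.3 to 35.1 in Day DKO and 40.2 to 57.3 in Day WT. None of them was at 0 in any group. Between genotypes, averaged over times, 3 of 5 blood and 1 of 8 oligodendrocyte markers were lower too. The 8 choroid plexus markers had a median of -0.62, with 0 positive and none called. Higher were 3 of 6 microglial, 1 of 6 astrocyte and 1 of 6 excitatory neuron markers. The part of these cell types and tissues in the values of Timp3 was not tested.

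Timp3 also rose at night by 0.49 averaged over genotypes (adjusted p = 0.00133), and within DKO and within WT by 0.52 and 0.45 (adjusted p = 0.0179 and 0.0339). The averaged rise passed in all 18 other settings. The rise within WT was kept in 10 of 19 (highest adjusted p 0.121) and that within DKO in 12 of 19. With the choroid plexus covariate the difference within DKO was 0.40 and lost its call (adjusted p = 0.215). The 8 choroid plexus markers had a median night-day difference of 1.49 in DKO, with none called. At an unadjusted limma p under 0.05, 7 of the 8 passed there, against 15.1% of all genes. In the averaged night-day comparison the 8 endothelial and mural markers had a median of -0.09, with 1 lower and 0 higher. The part of these markers in the rise of Timp3 was not tested.

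Other genes of these lists were called by time in the averaged comparison, where 5.19% of all tested genes were higher and 0.875% lower at night. Vps29, a subunit of the retromer that carries BACE1 and the precursor between compartments, averaged 14.0 ± 0.649 FPKM in Night DKO and 13.9 ± 0.741 in Night WT, against 11.5 ± 0.170 in Day DKO and 11.1 ± 0.593 in Day WT. Vps29 rose at night by 0.28 (limma adjusted p = 0.00481), 1 of 13 regulators of BACE1 with none lower. Lgmn, the lysosomal protease that cleaves the precursor as delta-secretase, averaged 21.9 ± 1.50 and 21.9 ± 1.20 FPKM in Night DKO and Night WT, against 18.3 ± 0.950 and 17.5 ± 0.842 in Day DKO and Day WT. Lgmn rose by 0.28 (adjusted p = 0.00944), 1 of 5 other cleaving proteases, and both calls passed in all 18 other settings. Within WT both genes were also called, with differences of 0.30 for Vps29 and 0.31 for Lgmn. Those WT calls were kept in 9 of 19 other settings for Vps29 (highest limma adjusted p 0.135) and in 4 of 19 for Lgmn (0.170).

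Beside 5.19% higher and 0.875% lower among all tested genes, 3 of the 16 adaptors and trafficking genes were higher at night and 0 lower. They were Apbb1 and Apbb3, which bind the cell-inner tail of the precursor, and Itm2b, which binds the precursor and limits its cleavage. Apbb1 averaged 40.1 ± 0.974 FPKM in Night DKO and 38.9 ± 3.01 in Night WT, against 36.5 ± 2.00 in Day DKO and 33.7 ± 0.518 in Day WT (difference 0.17, limma adjusted p = 0.0436). Itm2b averaged 215 ± 2.60 and 223 ± 5.30 FPKM in Night DKO and Night WT, against 197 ± 7.99 and 190.3 ± 7.89 in Day DKO and Day WT (0.17, adjusted p = 0.0304). Apbb3 differed by 0.25 (adjusted p = 0.0428). Of 18 other settings, the call was kept in 3 for Apbb1 (highest adjusted p 0.140), in 7 for Itm2b (0.187) and in 4 for Apbb3 (0.0958), and both rescalings ended it for all 3 genes. The blood and oligodendrocyte markers given beside Aplp2 moved in the same comparison, and their part in these calls was not tested.

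Of the substrates, 1 of 13 for BACE1 and 1 of 17 for ADAM10 and ADAM17 were lower at night and none was higher, beside 0.875% and 5.19% of all genes. The list medians were -0.0058 and 0.05, and 6 of 13 and 11 of 17 genes had positive differences. Sez6l, a neuronal membrane protein shed by BACE1, averaged 21.8 ± 1.24 and 20.9 ± 1.84 FPKM in Night DKO and Night WT, against 25.4 ± 1.09 and 23.5 ± 0.444 in Day DKO and Day WT, and fell by 0.19 at night (limma adjusted p = 0.0394, 1 of 13 substrates). Cx3cl1, the neuronal chemokine that ADAM10 and ADAM17 release, averaged 85.1 ± 4.60 and 79.5 ± 4.11 FPKM in Night DKO and Night WT, against 101.6 ± 3.59 and 86.3 ± 3.29 in Day DKO and Day WT. Cx3cl1 fell at night by 0.19 (adjusted p = 0.0309, 1 of 17 substrates), and of 18 other settings the call was kept in 8 for Sez6l (highest adjusted p 0.0845) and in 10 for Cx3cl1 (0.0930). Both rescalings were among the settings that kept the call for each gene. No amyloid-beta degrading protease was called by time.

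**Figure D4:**
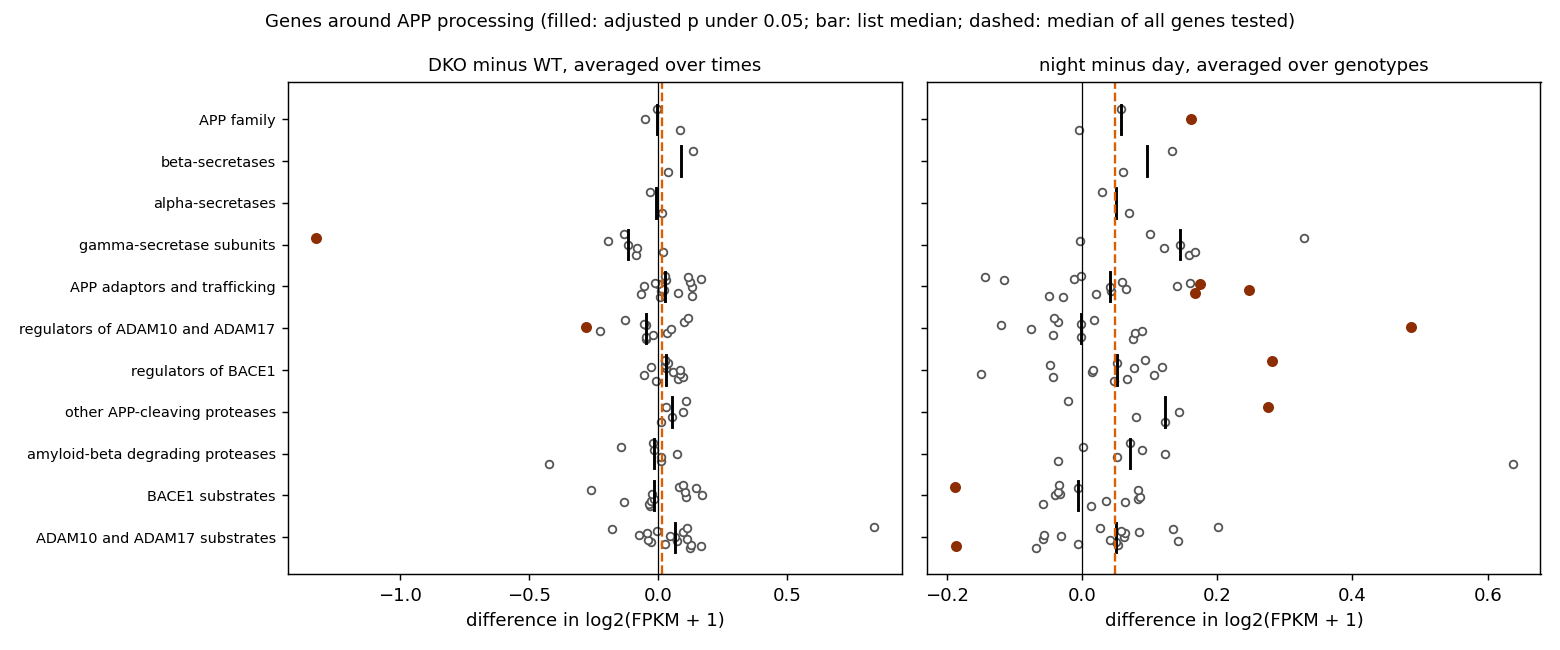
Differences in log2(FPKM + 1) of each gene in the lists around APP processing, for DKO minus WT averaged over times (left) and night minus day averaged over genotypes (right). Filled points passed the adjusted threshold: Psen2 and Timp3 on the left, and Aplp2 with 8 other genes on the right. Bars are list medians and the dashed line is the median of all tested genes.

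Among genes that missed the threshold between genotypes, Trem2, a microglial receptor shed by ADAM10 and ADAM17, had the largest averaged difference of its list at 0.84 (adjusted p = 0.0510). Without Night DKO replicate 1 that difference was 1.06 and passed (adjusted p = 5.2e-05), and it passed in 3 of 18 other settings in all. It averaged 7.86 ± 4.31 FPKM in Night DKO and 3.39 ± 0.170 in Night WT, and 5.83 ± 0.510 in Day DKO and 2.95 ± 0.625 in Day WT. Of 6 microglial markers 3 were higher in DKO and 0 lower, averaged over times, beside 1.88% of all tested genes called in either direction. Their sum was 67.6 to 90.9 FPKM in Night DKO, 62.4 to 68.0 in Night WT, 77.1 to 85.1 in Day DKO and 54.8 to 61.6 in Day WT, and none of these markers was at 0. Their part in the values of Trem2 was not tested. The adaptor Mapk8ip1, which links the precursor to its transport motor, had a difference of 0.17 (adjusted p = 0.103), and the sodium channel subunit Scn4b, a BACE1 substrate, of -0.26 (adjusted p = 0.137).

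Some reads of the members can come from genes on the opposite strand. In GENCODE M21 the exons of Bace1 shared 15.4% of their bases with Rnf214, 15% with Gm49338 and 2.13% with Gm16536 on the opposite strand, those of Adam17 shared 4.35% with Iah1, and those of App shared 0.869% with an antisense gene. The library kit kept strand, but no source used here states whether strand was used in quantifying. By annotation (RefSeq, GRCm38.p6) App lies at chr16:84952666-85175255, Aplp1 at chr7:30434980-30445582, Aplp2 at chr9:31149557-31211848, Bace1 at chr9:45838545-45862484, Bace2 at chr16:97356728-97442936, Adam10 at chr9:70678944-70780229 and Adam17 at chr12:21323509-21373632.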

How the data were processed

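The authors deposited FPKM for 21878 genes, in a separate table for every library. The headers name no unit, which was read from the range of the values. Libraries were stranded and depleted of ribosomal RNA, per the labels' protocols, and the submitters' processing notes name build GRCm38.p6. Aligner, quantifier, annotation and strand setting: not given in the sources used here. Depth is unknown. Steps between low values gave a relative depth of 0.943 to 1.055, with Day WT replicate 1 set to 1. FPKM summed to 151059 to 175692 per library, and 3964 genes were at 0 in all.

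From the deposited FPKM, 12689 genes with at least 0.5 FPKM in at least 3 libraries, the 7 members among them, were tested as log2(FPKM + 1) with limma 3.58.1 (R 4.3.3), fitting a mean to each of the 4 groups over all 12 libraries, with an intensity trend. Every adjusted p is from this fit (Benjamini-Hochberg, 2-sided). Log2 differences of genes near or under 1 FPKM are understated. The code was tested on simulated data. Of gene IDs, 21727 matched RefSeq, and 27 symbols turned into dates were restored. Members and gene lists were chosen with earlier results of these data known. Named genes are all members, Psen2, the 2 genes most like each member by r, and from each list the called genes and the 2 with the smallest genotype p, of which some are counted only. A further gene is not reported here. Alternatives were a pseudocount of 0.1, no filter, median-of-ratios scaling, quantile normalization, only the groups compared, a replicate block, a choroid plexus covariate and leaving out each library.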

Additional observations from a re-analysis of the deposited data

How the results depend on the processing

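The 1 member called, Aplp2 by time averaged over genotypes, became 0 members called with median-of-ratios scaling, with quantile normalization and with the choroid plexus covariate, and leaving out 1 library gave 0 to 1. In the other 6 comparisons 0 members were called in each setting run. By the rule that every same-numbered pair correlates over 0.1, replicate numbers were not taken to pair the libraries: deviations from group means of libraries with the same number correlated at -0.116 to 0.247 over 18 pairs, and those with different numbers at -0.204 to 0.220. Between Day DKO and Night WT, which no pairwise comparison sets against each other, the 3 same-numbered pairs correlated at 0.168 to 0.247. With the replicate block, 1 member was called by time averaged over genotypes and 0 in each other comparison. The fit to only the groups compared was run for the 4 comparisons of a pair of groups. Rescaling also moved the direction of calls over all genes: of those called by time averaged over genotypes 85.6% were higher at night as deposited, 42.3% with median-of-ratios scaling and 40.1% with quantile normalization. In WT these shares were 90.6%, 40% and 36.1%, and for DKO against WT by day 67.3%, 48.8% and 53.1%. The cause was not tested. Member differences that changed sign were all uncalled. With median-of-ratios scaling they were, for DKO against WT by day, -0.024 for Adam10, -0.030 for Adam17 and -0.021 for App, for night against day in DKO -0.0033 for App, for night against day in WT -0.0098 for Adam10 and -0.057 for Aplp1, and for the averaged genotype difference -5.0e-06 for Adam10. With quantile normalization they were -0.046 for Adam10 and -0.052 for App by day between genotypes, -0.021 for Adam10, -0.095 for Aplp1 and -0.050 for App by time in WT, and -0.010 for Adam10 averaged over times. With the choroid plexus covariate they were 0.014 for Aplp2 by day between genotypes, 0.095 for Aplp1 and 0.076 for Bace1 by time in DKO, and -0.0028 for Bace1 averaged over times. Leaving out 1 library gave ranges that crossed 0. Between genotypes by day these were -0.0085 to 0.037 for Adam10, -0.037 to 0.058 for Adam17 and -0.046 to 0.015 for Aplp2. At night they were -0.046 to 0.047 for Adam10, -0.13 to 0.00042 for Adam17, -0.096 to 0.026 for App and -0.071 to 0.012 for Bace1. Averaged over times they were -0.013 to 0.033 for Adam10, -0.061 to 0.0015 for Adam17 and -0.035 to 0.027 for App. By time in DKO they were -0.066 to 0.060 for Adam17, -0.12 to 0.059 for Aplp1, -0.034 to 0.089 for App and -0.040 to 0.012 for Bace1, and in WT -0.026 to 0.068 for Aplp1. Of 1296 recomputed differences of members and list genes, 1129 kept their direction and side of the threshold. Most of the 1296 were uncalled as reported, so keeping their side mostly meant staying uncalled. Another 118 kept their direction and lost a call, 41 changed direction and 8 gained a call. The depth behind the low FPKM of Bace2 is unknown.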
